A study of Mus musculus with 9 samples.

Results

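The genes examined were the translation initiation and elongation factors of a mouse acute myeloid leukaemia cell line, taken as every symbol of the count table that begins with Eif and a digit from 1 to 6 or with Eef and a 1 or 2. The rule took 66 of 24756 rows, none of them a row marked as a pseudogene, and 63 of the 66 were among the 10215 genes with enough counts to be tested. The line was made from fetal liver cells with a pair of retroviral vectors that all groups carry. The first, MSCV-Luc2-IRES-MLL-AF9, makes luciferase and the leukaemia fusion protein MLL-AF9 at all times. The second, TRE-tight-DsRED-IRES-FLT3-ITD, makes a red fluorescent protein together with FLT3-ITD, a mutant receptor kinase active without its ligand, while doxycycline is present. RNA was read from its 3' end (Lexogen QuantSeq) in 9 libraries: 3 from cells held in 1 µg/mL doxycycline (ON), 3 from cells 24 h after wash-out into medium without the drug (OFF24) and 3 from cells 48 h after it (OFF48). The labels do not say whether the line is 1 clone or whether each library had a culture of its own. P-values therefore measure the spread between these libraries, which may be technical.

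To start translation, eIF2 with GTP carries the initiator tRNA to the small ribosomal subunit, eIF1 and eIF1A hold that subunit open for scanning, and eIF3 ties it to the mRNA. The mRNA is brought by eIF4F, made of the cap-binding protein eIF4E, the RNA helicase eIF4A and the scaffold eIF4G. When the start codon is found, eIF5 and eIF5B complete the step, eIF2B reloads eIF2 with GTP, and the elongation factors eEF1A and eEF2 then bring each tRNA and move the ribosome along. In blood cells these factors are drawn on most heavily during growth, and eIF4E availability and phosphorylation of eIF2 are known points of control downstream of growth factor receptors.

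The shallowest library, OFF48 replicate 2, held 1329296 counts and the deepest, ON replicate 2, held 4038456. Levels are counts scaled to library size (CPM), and the limit that a count of 0 allows, 3 counts, lay between 0.743 and 2.26 CPM. Mouse Flt3 had 2 to 10 counts per library and does not check the transgene, whose transcript ends in vector sequence. All 10 myeloid markers looked at were tested, and their summed level was 2339 to 2534 CPM in ON, 4192 to 4615 in OFF24 and 6403 to 7270 in OFF48. Erythroid, lymphoid, megakaryocyte and hepatocyte markers summed to at most 4.35 CPM in any library, and none of those 17 genes was tested; 2 of 5 erythroid, 1 of 5 lymphoid and 2 of 4 hepatocyte markers were at 0 throughout. The myeloid sum, in which Prtn3 was the largest gene, moved with the groups. It does not show the course of each marker, and its part in the results below was not tested. ON replicate 2 stood apart from the other ON libraries (chi-square per degree of freedom of 6.66 and 6.99 against them, and 2.10 between them), and its deviations went with those of OFF48 replicate 2 (correlation 0.41 across genes, which are not independent).

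By 48 h after doxycycline was withdrawn, most factors were lower than in ON. At 24 h, 30 of the 63 tested members were lower than in ON (47.6%, where 17.4% of all tested genes were lower) and 5 were higher (7.94%, against 17.8% of all genes). At 48 h, 43 were lower (68.3%, against 23.9%) and 5 were higher (7.94%, against 23.4%). Counts were tested with edgeR's quasi-likelihood F test, and a gene was called at a Benjamini-Hochberg adjusted p under 0.05 over all tested genes. The median log2 fold change of the members was -0.29 at 24 h and -0.53 at 48 h, with 0.03 and 0.01 over all tested genes. Both sets of changes are measured against the same ON libraries. In these bulk samples, fewer cells of a type and less RNA per cell cannot be told apart.

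OFF48 was lower than OFF24 for 21 members (33.3%, where 11.2% of all tested genes were lower) and higher for 3 (4.76%, against 9.99%), with a median log2 fold change of -0.22 beside 0.00 over all genes. By class, of 53 tested Eif genes, 28 were lower and 2 higher at 24 h, and 36 lower and 4 higher at 48 h. Of 10 tested Eef genes, 2 were lower and 3 higher at 24 h, and 7 lower and 1 higher at 48 h. Behind these counts, and those of each complex below, stand the same shares of all tested genes. They were 17.4% lower and 17.8% higher at 24 h, 23.9% and 23.4% at 48 h, and 11.2% and 9.99% between the time points. Falls of at least 2-fold were called for 6 of the 63 members at 24 h, where 4.33% of all tested genes had one, and for 12 at 48 h, where 8.82% did. With ON replicate 2 and OFF48 replicate 2 left out, the members lower and higher were 29 and 6 at 24 h, 41 and 3 at 48 h, and 23 and 6 between the time points. Without the 19 members that share their 3' end with another gene, where reads could be split, 2 were higher at 24 h and 12 were lower in OFF48 than in OFF24. These counts are of the same fit over fewer members, so they could only stay or fall. A smaller count here does not show that a call was lost. The members higher at 24 h were 3 when ON replicate 2 or OFF24 replicate 1 was left out, and those higher in OFF48 than in OFF24 were 5 without ON replicate 2 and 1 without OFF24 replicate 3 or OFF48 replicate 3.

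**Figure D1:**
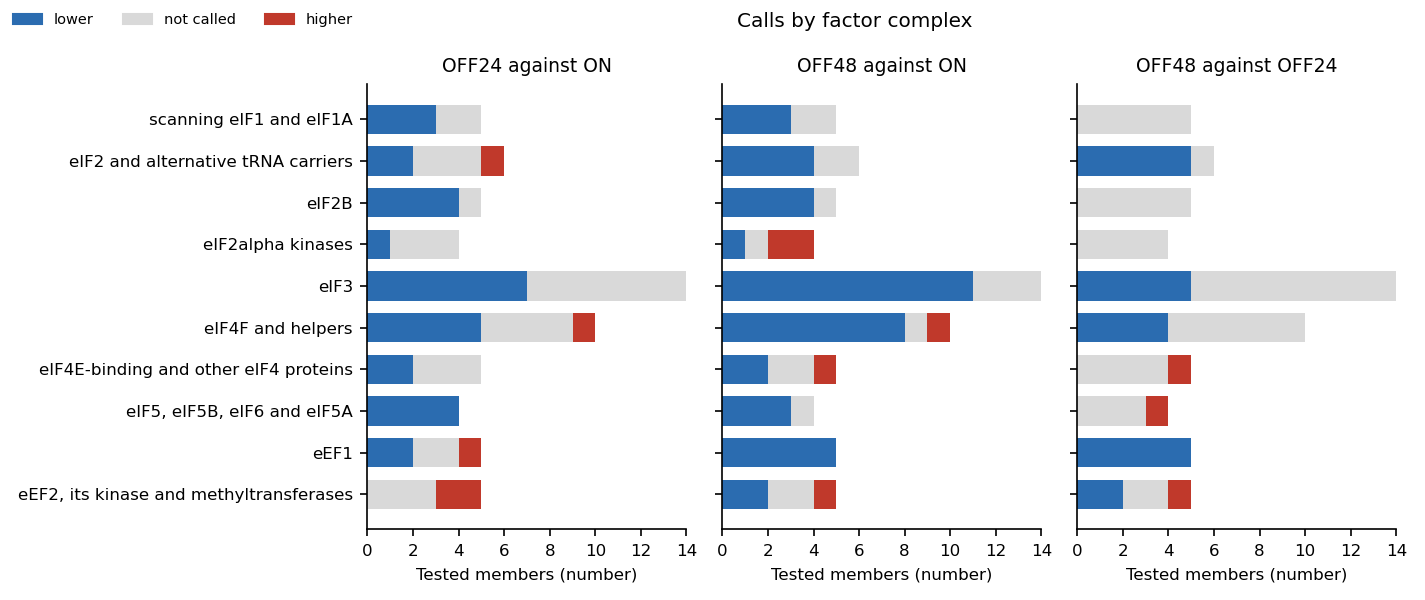
Number of tested members (horizontal axis) lower, higher or not called in each comparison, by factor complex (edgeR adjusted p under 0.05). All 4 genes of the eIF5 row were lower at 24 h, and all 5 of the eEF1 row were lower at 48 h and between the time points.

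Summed over genes, the initiation factors lost share of the counts at both times, and the elongation factors gained at 24 h and lost at 48 h. The Eif genes together made up 1.26% ± 0.0165 of all counts in ON (SD, n = 3), 0.937% ± 0.0146 in OFF24 and 0.869% ± 0.00404 in OFF48. The Eef genes made up 1.55% ± 0.0575 in ON, 1.82% ± 0.0208 in OFF24 and 1.22% ± 0.0614 in OFF48. Eef1a1, the gene of the tRNA-delivering factor eEF1A, alone held 1.07%, 1.28% and 0.893% of the counts on average. The Eif share was thus lowest at 48 h and the Eef share was highest at 24 h, with no overlap between the libraries of any 2 groups in either sum. These sums were not tested, and they weigh each gene by its own counts. The gain at 24 h is one of the sum and not of most Eef genes. Of the 10 tested, 3 were called higher and 2 lower, beside 17.8% and 17.4% of all tested genes.

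**Figure D2:**
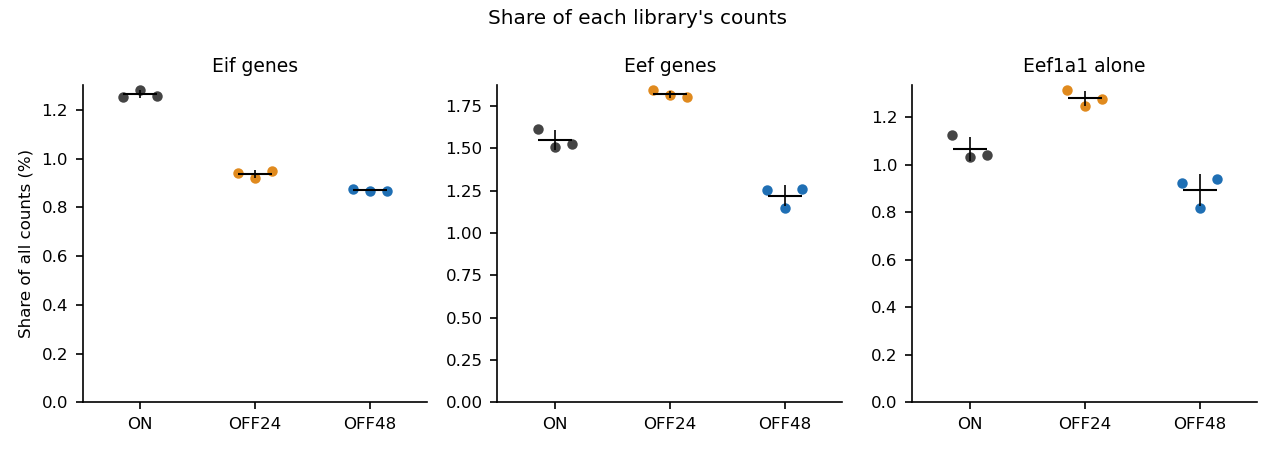
Share of each library's counts (percent, vertical axis) from all Eif genes, all Eef genes and Eef1a1 alone; points are libraries, horizontal bars the group means and vertical bars the SD (n = 3). The Eif share falls from 1.26% to 0.869%, whereas the Eef share peaks in OFF24 at 1.82%.

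Of the genes for scanning, the eIF1A pair fell and the eIF1 pair did not pass the test. 3 of the 5 tested genes were lower at both times and none was higher. Eif1a, which encodes one of the near-identical forms of eIF1A, stood at 71.4, 77.4 and 68.7 CPM in ON, 29.3, 26.7 and 25.3 in OFF24, and 18.1, 27.0 and 17.8 in OFF48. Every ON library lay above every later one, and the log2 fold change was -1.43 ± 0.14 (SE, approximate) at 24 h and -1.87 ± 0.15 at 48 h (edgeR adjusted p = 3.27e-07 and 8.79e-09). Eif1ax, the X-linked form, fell less, with 123, 127 and 126 CPM in ON, 81.1, 83.2 and 84.3 in OFF24, and 75.1, 66.0 and 80.5 in OFF48 (log2 -0.59 ± 0.10 and -0.74 ± 0.11, edgeR adjusted p = 2.16e-04 and 1.24e-05), again without overlap. Between the time points Eif1a was not called with all libraries (log2 -0.44 ± 0.17), and it passed the test when OFF48 2 was left out (edgeR adjusted p = 0.0213), where OFF48 2 stands for replicate 2 of that group.

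Eif1ad, whose protein shares the eIF1A fold, had 94.4, 68.0 and 97.7 CPM in ON, 56.4, 39.9 and 50.3 in OFF24, and 74.5, 51.7 and 59.2 in OFF48. Its groups did not overlap at 24 h (log2 -0.83 ± 0.16, edgeR adjusted p = 7.16e-04) but did at 48 h (log2 -0.46 ± 0.16, adjusted p = 0.0263), and the later call was lost when any 1 of ON 1, ON 3, OFF48 2 or OFF48 3 was left out (edgeR adjusted p = 0.0735 to 0.1101). Eif1, the start-codon gatekeeper itself, read 1005, 793 and 1025 CPM in ON, 1041, 972 and 978 in OFF24, and 839.7, 653 and 876 in OFF48, with overlap between ON and each later group (log2 0.08 ± 0.12 and -0.25 ± 0.12, edgeR adjusted p = 0.611 and 0.0898). Its fall at 48 h passed the test with the replicate block (edgeR adjusted p = 0.0184), and also when ON 2 or OFF48 3 was left out (edgeR adjusted p = 0.0128 to 0.0488). The 3' end of Eif1 matches those of 12 other annotated genes at 95% identity or more, so reads could have been split among them and the level is uncertain. Eif1b, a second eIF1 gene, was not called (log2 0.27 and 0.20).

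Of eIF2 itself, the alpha and beta subunit genes stood at 44.8% and 44.9% of their ON levels at 24 h, and the X-linked gamma subunit gene was lower at 48 h. Eif2s2, the beta subunit, stood at 1475, 1475 and 1496 CPM in ON, 634, 624 and 736 in OFF24, and 573, 541 and 508 in OFF48. ON stood far above both later groups, and OFF48 also lay wholly below OFF24. The log2 fold change was -1.16 ± 0.10 at 24 h and -1.46 ± 0.10 at 48 h (edgeR adjusted p = 4.63e-08 and 6.68e-10), and -0.30 ± 0.10 between them, a call that was lost when any 1 of ON 1, OFF24 1, OFF24 2, OFF24 3, OFF48 2 or OFF48 3 was left out (edgeR adjusted p = 0.0560 to 0.245). The 3' ends of Eif2s2 and Eif2s3x each match 1 other annotated gene, which makes their levels uncertain in part. Eif2s1, the alpha subunit whose phosphorylation slows initiation, had 62.2, 92.6 and 63.0 CPM in ON, 30.1, 30.8 and 36.6 in OFF24, and 30.9, 38.2 and 37.3 in OFF48. It fell at both times without overlap (log2 -1.16 ± 0.16 and -1.05 ± 0.16, edgeR adjusted p = 1.74e-05 and 3.02e-05), and its later groups overlapped. Eif2s3x, the X-linked gamma subunit, was near its ON level at 24 h (log2 -0.04 ± 0.16, edgeR adjusted p = 0.853) and lower at 48 h (log2 -0.88 ± 0.17, adjusted p = 3.81e-04). Eif2s3y, its Y-linked copy, was lower in OFF48 than in OFF24 (log2 -0.62 ± 0.22, edgeR adjusted p = 0.0465), a call lost in 8 of the 9 fits that left out a library.

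The alternative carriers of initiator tRNA followed other courses. Eif2d, which encodes a single-chain factor that can load tRNA without GTP, had 21.7, 25.8 and 22.9 CPM in ON, 19.6, 20.4 and 21.1 in OFF24, and 8.39, 8.25 and 11.95 in OFF48. OFF24 lay just below ON and was not called (log2 -0.20 ± 0.17, edgeR adjusted p = 0.370), and OFF48 was below both (log2 -1.25 ± 0.19 against ON and -1.05 ± 0.20 against OFF24, adjusted p = 3.05e-05 and 9.21e-04). Eif2a, another single-chain factor and not the alpha subunit of eIF2, rose at 24 h (log2 0.49 ± 0.14, edgeR adjusted p = 0.00972) and was back under its ON mean at 48 h (log2 -0.25, not called), a fall of log2 -0.74 ± 0.15 between the time points (adjusted p = 0.00123). The rise was lost when ON 2 or OFF24 1 was left out (edgeR adjusted p = 0.0547 to 0.0633). In all, 2 of the 6 tested genes of this row were lower and 1 higher at 24 h, 4 were lower at 48 h and 5 were lower in OFF48 than in OFF24.

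Genes for eIF2B, the exchange factor that reloads eIF2, fell for 4 of the 5 subunits at each time. Eif2b3, the gamma subunit, had 21.4, 16.7 and 16.8 CPM in ON, 7.94, 7.85 and 8.04 in OFF24, and 6.71, 11.2 and 7.87 in OFF48. It stood at 43.3% of ON at 24 h and 44.2% at 48 h (log2 -1.21 ± 0.21 and -1.18 ± 0.22 against ON, edgeR adjusted p = 2.45e-04 and 2.24e-04, and 0.03 ± 0.26 between the time points). Eif2b5, the catalytic epsilon subunit, had 54.8, 78.1 and 45.1 CPM in ON, 27.2, 39.2 and 34.9 in OFF24, and 24.8, 39.0 and 20.1 in OFF48. ON did not overlap either later group (log2 -0.81 ± 0.22 and -1.20 ± 0.24, edgeR adjusted p = 0.00982 and 7.18e-04), with replicate 2 the highest library of ON and of both later groups. Eif2b1, the alpha subunit that senses phosphorylated eIF2, had 17.3, 19.2 and 15.03 CPM in ON, 13.0, 10.7 and 11.3 in OFF24, and 12.1, 7.499 and 7.58 in OFF48 (log2 -0.58 ± 0.21 and -0.90 ± 0.22, edgeR adjusted p = 0.0343 and 0.00247).

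The calls of the smaller falls in this complex did not hold in every fit that left out 1 library. The call of Eif2b1 at 24 h was lost when any 1 of ON 1, ON 2, OFF24 2 or OFF24 3 was left out (edgeR adjusted p = 0.0663 to 0.106), and that of Eif2b2, the beta subunit, at 24 h was lost when any 1 of ON 2, OFF24 1, OFF24 2 or OFF24 3 was left out (edgeR adjusted p = 0.0793 to 0.158). At 48 h the call of Eif2b2 was lost when any 1 of ON 2, OFF24 2, OFF24 3, OFF48 1 or OFF48 3 was left out (edgeR adjusted p = 0.0532 to 0.182). Eif2b4, the delta subunit, was not called at either time (log2 -0.20 ± 0.15 and -0.03 ± 0.15). No eIF2B gene was called between the time points.

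The 4 kinases that phosphorylate eIF2 alpha did not move together. Eif2ak3, the kinase of the endoplasmic reticulum stress response (PERK), had 14.03, 22.8 and 14.7 CPM in ON, 18.4, 17.6 and 22.0 in OFF24, and 25.5, 34.5 and 28.0 in OFF48. OFF24 overlapped ON and OFF48 lay above both (log2 0.16 ± 0.20 and 0.71 ± 0.20, edgeR adjusted p = 0.576 and 0.00584). Eif2ak1, the haem-regulated kinase (HRI), had 20.9, 16.9 and 17.5 CPM in ON, 21.3, 21.7 and 21.4 in OFF24, and 23.8, 36.7 and 27.4 in OFF48, with the highest library OFF48 replicate 2 (log2 0.61 ± 0.18 at 48 h, edgeR adjusted p = 0.00790). With ON replicate 2 and OFF48 replicate 2 left out together, this rise was 0.40 and the call was lost (edgeR adjusted p = 0.0925).

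Eif2ak2, the kinase that double-stranded RNA switches on (PKR), went the other way, with 16.6, 16.7 and 17.2 CPM in ON, 11.7, 11.9 and 11.6 in OFF24, and 11.1, 8.25 and 10.2 in OFF48. Groups did not overlap at either time (log2 -0.51 ± 0.18 and -0.73 ± 0.19, edgeR adjusted p = 0.0344 and 0.00439), though the call at 24 h was lost when any 1 of ON 1, ON 2, ON 3, OFF24 1, OFF24 2 or OFF24 3 was left out (edgeR adjusted p = 0.0568 to 0.0861). Eif2ak4, the sensor of amino acid shortage (GCN2), had 30.6, 20.4 and 19.7 CPM in ON, 19.2, 27.0 and 18.2 in OFF24, and 16.4, 11.2 and 19.2 in OFF48. It was not called at either time (log2 -0.14 ± 0.21 and -0.53 ± 0.22, edgeR adjusted p = 0.636 and 0.0614), and its fall at 48 h passed the test when any 1 of ON 2, ON 3 or OFF48 3 was left out (edgeR adjusted p = 0.0339 to 0.0486).

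**Figure D3:**
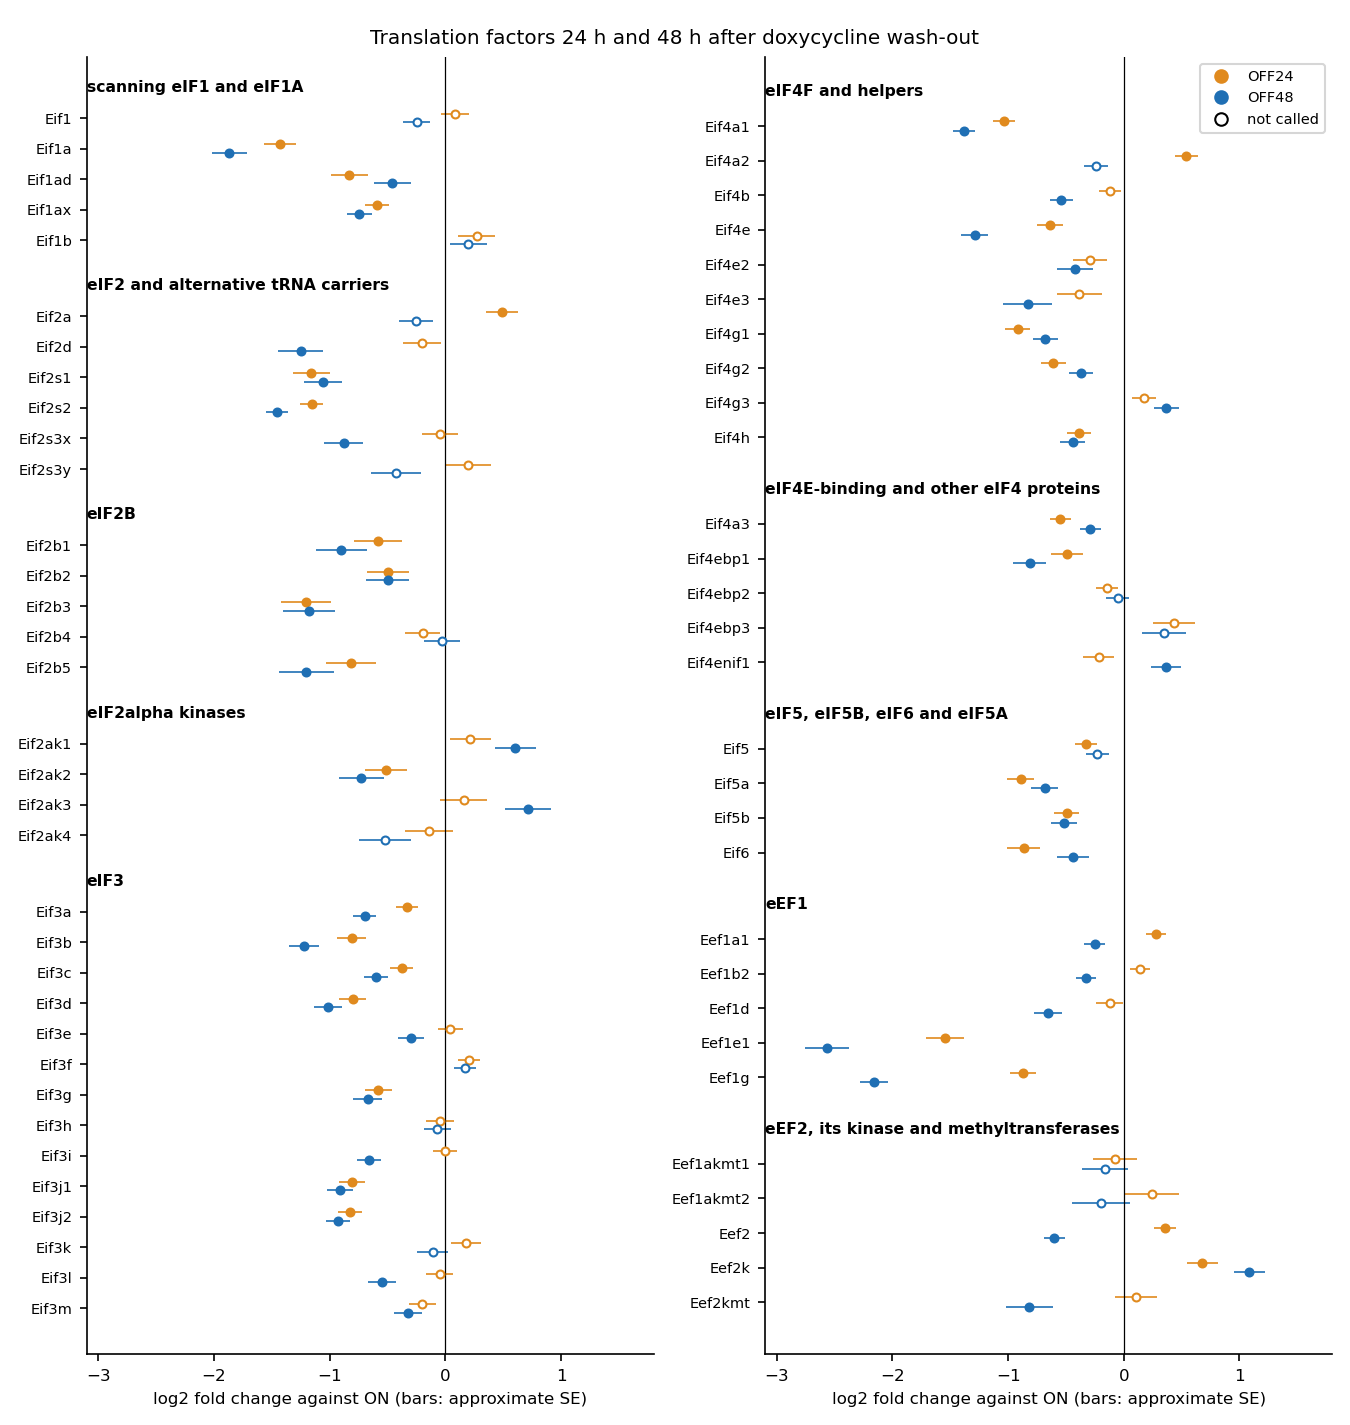
Log2 fold change of each of the 63 tested members against ON (horizontal axis) at 24 h and 48 h, grouped by factor complex; bars are the approximate SE and open points did not pass the edgeR threshold. Most points lie left of 0, with Eef1e1 farthest at 48 h (log2 -2.57) and Eef2k farthest to the right (log2 1.08).

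In eIF3, the largest initiation factor, 7 of 14 tested genes were lower at 24 h and 11 at 48 h, and none was higher. Eif3b, a core scaffold subunit with an RNA-binding domain, had 93.6, 103 and 94.5 CPM in ON, 55.6, 49.3 and 61.1 in OFF24, and 39.6, 51.0 and 37.9 in OFF48. ON lay above all later libraries (log2 -0.81 ± 0.12 and -1.22 ± 0.13, edgeR adjusted p = 5.17e-05 and 3.30e-07), while OFF24 and OFF48 overlapped. The difference between them (log2 -0.41 ± 0.14, edgeR adjusted p = 0.0399) was lost when any 1 of ON 1, ON 3, OFF24 1, OFF24 3, OFF48 1 or OFF48 3 was left out (edgeR adjusted p = 0.0511 to 0.212). Eif3d, a subunit that can itself bind the cap of some mRNAs, had 230.1, 283 and 261 CPM in ON, 126, 152 and 164 in OFF24, and 132, 139 and 114 in OFF48 (log2 -0.80 ± 0.12 and -1.02 ± 0.12, edgeR adjusted p = 3.44e-05 and 1.21e-06), with every ON library above the rest.

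The core subunits Eif3a and Eif3c fell less. Eif3a, the largest subunit and the platform for assembly, had 448, 391 and 446 CPM in ON, 329, 346 and 346 in OFF24, and 284, 256 and 249.9 in OFF48. The 3 groups stood in steps without overlap (log2 -0.33 ± 0.10 at 24 h, -0.70 ± 0.10 at 48 h and -0.37 ± 0.10 between them, edgeR adjusted p = 0.0128, 1.09e-05 and 0.0118), and the last call was lost when any 1 of OFF24 2, OFF24 3 or OFF48 3 was left out (edgeR adjusted p = 0.0582 to 0.0696). Eif3c, its partner in the core, had 313, 285 and 278 CPM in ON, 212, 232 and 229.7 in OFF24, and 202, 209 and 170.0 in OFF48 (log2 -0.38 ± 0.10 and -0.60 ± 0.11, edgeR adjusted p = 0.00768 and 1.06e-04), also without overlap with ON.

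Eif3j1 and Eif3j2, genes of the loosely bound j subunit, stood at 57.2% and 56.4% of ON at 24 h. Eif3j2 had 236, 241 and 245 CPM in ON, 142, 126 and 139 in OFF24, and 140.2, 110.2 and 126 in OFF48 (log2 -0.83 ± 0.10 and -0.93 ± 0.11, edgeR adjusted p = 6.14e-06 and 7.46e-07), and Eif3j1 fell by nearly the same amount (log2 -0.81 and -0.91). The 3' end of Eif3j2 matches sequence of Eif3j1, so the pair may share reads and is not independent, although both are counted among the members and the 14 eIF3 genes.

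Other eIF3 subunits divided by time. Eif3i and Eif3l were not called at 24 h (log2 -0.00 ± 0.10 and -0.05 ± 0.12, edgeR adjusted p = 0.999 and 0.774) and lower at 48 h (log2 -0.66 ± 0.11 and -0.55 ± 0.12, adjusted p = 4.47e-05 and 0.00119). Eif3f, Eif3h and Eif3k were called at neither time (log2 0.17, -0.07 and -0.11 at 48 h). Eif3f and Eif3h encode the pair of subunits with a deubiquitinase-like fold. The calls of Eif3e and Eif3m at 48 h, at log2 -0.30 and -0.33, were lost in turn when any 1 of ON 1, ON 2, ON 3, OFF48 1, OFF48 2 or OFF48 3 was left out (edgeR adjusted p = 0.0502 to 0.0797) and when any 1 of ON 1, ON 2, OFF48 1 or OFF48 3 was left out (edgeR adjusted p = 0.0623 to 0.103).

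Among the eIF4F genes the helicase pair moved in opposite directions at 24 h. Eif4a1 (chromosome 11, 69666936 to 69672423, minus strand, in mm10), the main helicase of growing cells, had 726, 734 and 721 CPM in ON, 338, 379 and 346 in OFF24, and 289.9, 290.2 and 259 in OFF48. Eif4a2 (chromosome 16, 23107444 to 23114136, plus strand), its close relative, had 228, 244 and 205 CPM in ON, 325, 341 and 319 in OFF24, and 174, 203 and 198 in OFF48. At 24 h Eif4a1 was below all ON libraries (log2 -1.04 ± 0.09, edgeR adjusted p = 1.34e-07) and Eif4a2 was above all of them (log2 0.54 ± 0.10, adjusted p = 4.02e-04). At 48 h Eif4a1 was lower still (log2 -1.38 ± 0.10, edgeR adjusted p = 1.12e-09) and Eif4a2 lay just under its ON libraries without passing the test (log2 -0.24 ± 0.10, adjusted p = 0.0631). The fall of Eif4a1 between the time points (log2 -0.34 ± 0.10) was lost when any 1 of OFF24 2, OFF24 3 or OFF48 3 was left out (edgeR adjusted p = 0.0563 to 0.105), and that of Eif4a2 was larger (log2 -0.78 ± 0.10, edgeR adjusted p = 2.02e-05). Eif4a2 was called lower at 48 h with the replicate block (edgeR adjusted p = 0.0384), and also when ON 3 or OFF48 2 was left out (edgeR adjusted p = 0.0374 to 0.0463). Its 3' end matches 2 unnamed gene models and overlaps Rfc4, which runs on the opposite strand, and the strand setting of the counting is not given in the sources used here.

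Eif4e, the gene of the cap-binding protein, fell in steps. Its libraries stood at 191, 175 and 191 CPM in ON, 130.0, 105 and 125 in OFF24, and 81.5, 65.2 and 78.4 in OFF48, with no overlap between any 2 groups. The log2 fold change was -0.64 ± 0.11 at 24 h and -1.29 ± 0.12 at 48 h (edgeR adjusted p = 2.05e-04 and 3.60e-08), and -0.65 ± 0.12 between the time points (adjusted p = 5.94e-04). Its 3' end matches 1 other annotated gene. The other cap-binding proteins fell less and at 48 h: Eif4e2, which binds the cap without recruiting eIF4G, by log2 -0.42 and Eif4e3 by log2 -0.83, both with overlap between the libraries. The call of Eif4e2 was lost when any 1 of ON 1, ON 3, OFF48 1 or OFF48 3 was left out (edgeR adjusted p = 0.0551 to 0.203).

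Eif4g1, the main scaffold of eIF4F, had 346, 278 and 312 CPM in ON, 166, 164 and 166 in OFF24, and 171, 212 and 204 in OFF48. It was lowest at 24 h, with its 3 libraries close together, and stayed below ON at 48 h (log2 -0.92 ± 0.11 and -0.68 ± 0.11, edgeR adjusted p = 3.08e-06 and 4.57e-05). Eif4g2, a scaffold that lacks the eIF4E-binding part, also fell at both times (log2 -0.61 and -0.37), whereas Eif4g3, a relative of Eif4g1, was higher at 48 h (log2 0.37 ± 0.11, edgeR adjusted p = 0.00748). Of the helicase cofactors, Eif4h was lower at both times (log2 -0.39 and -0.44) and Eif4b at 48 h (log2 -0.54). Altogether 5 of the 10 genes of this row were lower and 1 higher at 24 h, and 8 lower and 1 higher at 48 h.

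**Figure D4:**
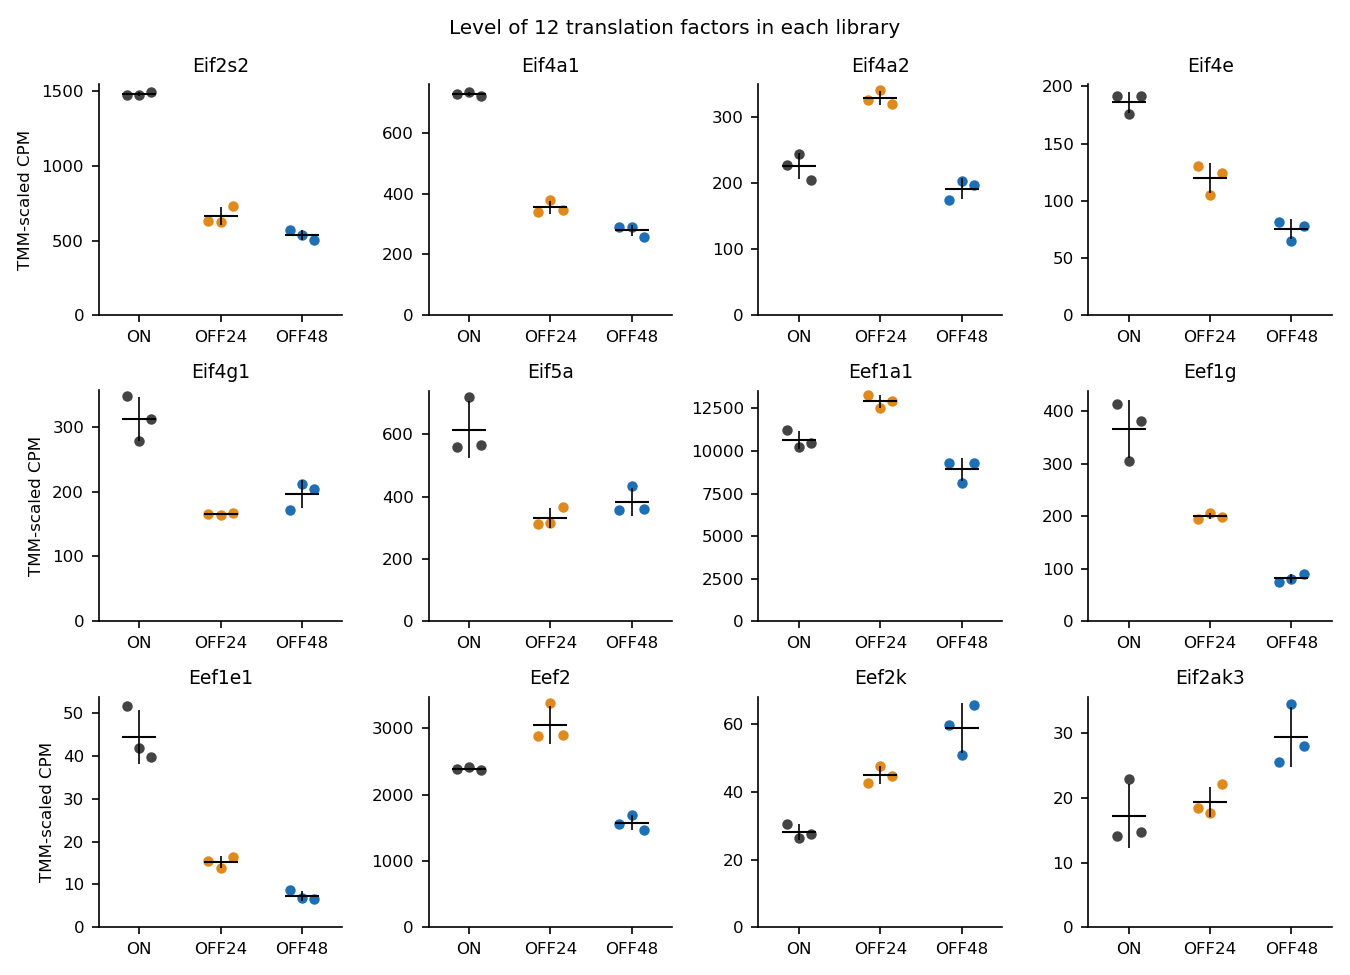
Level of 12 factors in each library (TMM-scaled CPM, vertical axes starting at 0, 1 panel per gene); points are libraries, horizontal bars the group means and vertical bars the SD (n = 3). Eif4a1 and Eif4a2 move in opposite directions from ON to OFF24, Eif4e falls in steps, and Eef2k climbs from 28.1 to 58.8 CPM.

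Ratios of related genes within a library, which do not depend on the scaling between libraries, lay apart from ON without overlap at 1 or both times for 5 of the 8 pairs compared. The log2 ratio of Eif4a2 to Eif4a1 counts was -1.69 ± 0.11 (SD, n = 3) in ON, -0.11 ± 0.05 in OFF24 and -0.55 ± 0.18 in OFF48, with no overlap between any 2 groups. Eif4g3 relative to Eif4g1 was higher by 1.09 at 24 h and by 1.04 at 48 h, and Eif1ax relative to Eif1a by 0.82 and 1.04, both without overlap with ON. Eif4ebp2 relative to Eif4ebp1, which encode proteins that hold eIF4E away from eIF4G, was higher by 0.35 and 0.74. Eif4e2 relative to Eif4e was higher by 0.34 at 24 h, with overlap, and by 0.92 at 48 h, without. In an exact two-sided permutation test, 3 libraries against 3 cannot give a p below 0.10, and each comparison without overlap had that p, or 0.218 after adjustment over all 24 tests. No ratio therefore passes a threshold of 0.05, and the ratio values across genes reflect their 3' ends as well as their abundance. Eif4g1 and Eif4e each serve in more than 1 pair, so the pairs are not independent. How often other gene pairs lie apart in this way was not computed.

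**Figure D5:**
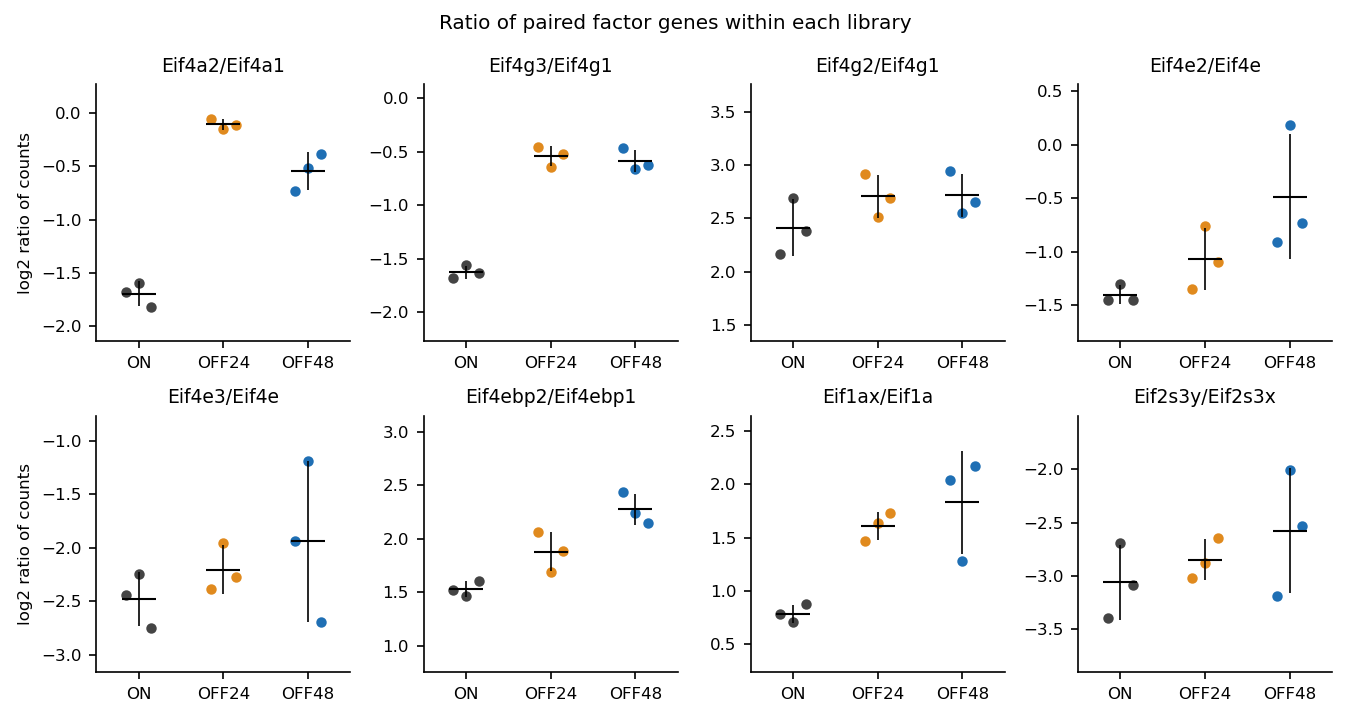
Log2 ratio of the counts of related genes within each library (vertical axis, 1 panel per pair); points are libraries, horizontal bars the group means and vertical bars the SD (n = 3). The Eif4a2 to Eif4a1 ratio rises from -1.69 in ON to -0.11 in OFF24.

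Several of these genes hold the hexamer CACGTG, a form of the E-box that MYC and related factors are known to bind, in the window from 250 bases before to 50 bases after the transcription start (RefSeq, GRCm38.p6). The word reads the same on both strands. Of 51 members with a window, 12 (23.5%) held it, where 8.09% of 27025 genes and 12.4% of 8018 tested genes did. The stretches are shown 5' to 3' on the gene's strand, with the hexamer in capitals, for genes that fell at both times (Eif4a1, Eif4g1, Eif5a and Eif4e) and for those that rose at 24 h (Eef2 and Eef2k). They lie at chr11:69672567-69672652 (minus strand), chr16:20672633-20672718 (plus), chr11:69921415-69921500 (minus), chr3:138527192-138527221 (plus), chr10:81176548-81176633 (plus) and chr7:120842760-120842845 (plus), in the order of the lines.
Eif4a1: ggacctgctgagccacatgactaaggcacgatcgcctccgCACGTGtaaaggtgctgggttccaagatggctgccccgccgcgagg
Eif4g1: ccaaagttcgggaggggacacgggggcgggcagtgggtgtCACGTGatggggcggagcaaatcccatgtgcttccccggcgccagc
Eif5a: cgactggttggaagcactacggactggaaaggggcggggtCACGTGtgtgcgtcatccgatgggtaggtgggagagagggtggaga
Eif4e: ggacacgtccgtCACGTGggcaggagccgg
Eef2: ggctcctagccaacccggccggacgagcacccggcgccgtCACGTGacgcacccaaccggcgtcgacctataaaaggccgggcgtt
Eef2k: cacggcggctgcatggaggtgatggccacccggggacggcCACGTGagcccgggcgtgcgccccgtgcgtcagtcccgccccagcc

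The hexamer was found in windows of genes of every course. It was present for 6 of 23 members lower at 24 h, 2 of 5 higher and 3 of 21 not called, and for 7 of 32 lower at 48 h, 1 of 5 higher and 3 of 12 not called. Besides those shown, Eif3a and Eif4h among genes that fell, Eif1b, Eif3f and Eif3k among genes called at neither time, and the untested Eif5a2 held it. A match describes the letters of the window and not a site.

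Of the proteins that restrain eIF4E and the other eIF4 genes, 2 of 5 were lower at each time. Of all tested genes, 17.4% were lower at 24 h and 23.9% at 48 h, and 5 genes are too few to set this group apart. Eif4ebp1, whose protein blocks eIF4E until it is phosphorylated, had 58.4, 64.6 and 52.2 CPM in ON, 37.2, 48.3 and 39.3 in OFF24, and 29.2, 36.7 and 35.3 in OFF48. ON lay above both later groups (log2 -0.49 ± 0.14 and -0.81 ± 0.15, edgeR adjusted p = 0.00914 and 1.30e-04). Eif4ebp2, the related inhibitor, had 168, 178 and 159.6 CPM in ON, 156, 156 and 146 in OFF24, and 159, 175 and 157 in OFF48 and was not called (log2 -0.14 ± 0.10 and -0.05 ± 0.10, edgeR adjusted p = 0.267 and 0.698).

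Eif4a3 belongs to the exon junction complex and not to eIF4F. It had 275, 299 and 279 CPM in ON, 194, 194 and 195 in OFF24, and 237, 219 and 241 in OFF48, lowest at 24 h (log2 -0.55 ± 0.09 and -0.29 ± 0.09, edgeR adjusted p = 1.76e-04 and 0.0166), and the call at 48 h was lost when OFF48 2 was left out (edgeR adjusted p = 0.0508). Its 3' end matches 3 other annotated genes. Eif4enif1, whose protein takes eIF4E to the nucleus and to processing bodies, had 48.2, 50.6 and 46.9 CPM in ON, 42.2, 39.9 and 43.5 in OFF24, and 52.0, 69.7 and 67.6 in OFF48. It was higher in OFF48 than in either other group without overlap (log2 0.36 ± 0.13 against ON and 0.58 ± 0.13 against OFF24, edgeR adjusted p = 0.0277 and 0.00414), but the call against ON was lost when any 1 of ON 1, ON 3, OFF48 2 or OFF48 3 was left out (edgeR adjusted p = 0.0685 to 0.133).

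All 4 tested genes of subunit joining and of eIF5A were lower at 24 h, and 3 of them at 48 h. Eif5a, the hypusine-bearing factor that helps ribosomes past stalls, had 560.3, 719 and 565 CPM in ON, 313, 315 and 367 in OFF24, and 358, 436 and 359 in OFF48. Both later groups lay below ON (log2 -0.89 ± 0.12 and -0.68 ± 0.12, edgeR adjusted p = 1.08e-05 and 9.15e-05), with ON replicate 2 the highest library. Eif5b, the GTPase that joins the ribosomal subunits, had 287, 296 and 282 CPM in ON, 199, 200.3 and 214 in OFF24, and 215, 226 and 168 in OFF48 (log2 -0.49 ± 0.11 and -0.52 ± 0.11, edgeR adjusted p = 0.00170 and 7.28e-04). The 3' ends of both are shared, Eif5a with 3 annotated genes and Eif5b with Rev1 on the opposite strand.

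Eif6, whose protein keeps the subunits apart until the large one is mature, had 74.2, 95.1 and 66.6 CPM in ON, 41.8, 41.4 and 46.5 in OFF24, and 53.0, 55.5 and 65.3 in OFF48. It was lowest at 24 h (log2 -0.87 ± 0.14, edgeR adjusted p = 9.83e-05) and partly back at 48 h (log2 -0.44 ± 0.14 against ON and 0.43 ± 0.15 against OFF24, adjusted p = 0.0142 and 0.0459). The call against ON at 48 h was lost when ON 2 or OFF48 1 was left out (edgeR adjusted p = 0.0753 to 0.0959), and the rise from OFF24 when any 1 of OFF24 1, OFF24 2, OFF24 3 or OFF48 3 was left out (edgeR adjusted p = 0.0605 to 0.186). Eif5, which triggers GTP hydrolysis on eIF2, had 252, 241 and 244 CPM in ON, 204, 180.5 and 203 in OFF24, and 219, 196 and 211 in OFF48. It was lower at 24 h (log2 -0.33 ± 0.10, edgeR adjusted p = 0.0129), a call lost when OFF24 2 was left out (edgeR adjusted p = 0.0677), and was not called at 48 h (log2 -0.23 ± 0.10, adjusted p = 0.0598), where the replicate block gave a call (edgeR adjusted p = 0.0307).

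Of the 5 genes of the eEF1 row, 2 were lower and 1 higher at 24 h. All 5 were lower at 48 h and lower in OFF48 than in OFF24. The row holds Eef1e1 by its symbol alone, and Eef1e1 was 1 of the 2 lower at 24 h. Eef1a1, the most counted of all members and the gene of the factor that delivers each tRNA, had 11241, 10230.4 and 10447 CPM in ON, 13277, 12537 and 12962 in OFF24, and 9326, 8135 and 9318 in OFF48. OFF24 lay above and OFF48 below all ON libraries, by small amounts (log2 0.28 ± 0.09 and -0.25 ± 0.09, edgeR adjusted p = 0.0165 and 0.0215). The drop between the time points was log2 -0.53 ± 0.09 (edgeR adjusted p = 1.94e-04). The rise was lost when any 1 of ON 2, ON 3, OFF24 1 or OFF24 3 was left out (edgeR adjusted p = 0.0583 to 0.0758), the fall at 48 h when ON 1 or OFF48 2 was left out (edgeR adjusted p = 0.0936 to 0.1103). With limma on the deposited log2 values the rise was 0.17 (adjusted p = 0.268), and the 3' end of Eef1a1 is shared with 21 annotated genes.

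The exchange factors of eEF1A were all lower at 48 h. Eef1g (chromosome 19, 8967041 to 8978479, plus strand), the gamma subunit that anchors the exchange complex, had 413, 305 and 380.0 CPM in ON, 195, 207 and 198 in OFF24, and 74.1, 80.2 and 90.4 in OFF48. The groups stood in wide steps, with OFF48 at 22.4% of the ON level (log2 -0.87 ± 0.11 at 24 h and -2.16 ± 0.12 at 48 h, edgeR adjusted p = 9.79e-06 and 8.83e-11, and -1.29 ± 0.12 between the time points). The catalytic subunits had smaller fold changes. Eef1b2 had 1788, 1711 and 1761 CPM in ON, 2004, 1859 and 1931 in OFF24, and 1472, 1336 and 1374 in OFF48 (log2 0.14 ± 0.09, not called, and -0.33 ± 0.09, edgeR adjusted p = 0.00425). Eef1d, the other exchange subunit, had 178, 158 and 211 CPM in ON, 179, 156 and 167 in OFF24, and 129, 106 and 108 in OFF48 (log2 -0.12 ± 0.12, not called, and -0.66 ± 0.12, adjusted p = 1.78e-04). OFF24 overlapped ON for Eef1d and lay just above it for Eef1b2, whose call at 48 h was lost with limma on the deposited log2 values (adjusted p = 0.0582). The 3' ends of both are shared, that of Eef1b2 with 1 annotated gene and that of Eef1d with 2.

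Eef1e1 (chromosome 13, 38644207 to 38659058, minus strand) had the largest fall of all tested members at both times. Despite its name, its protein (AIMP3) is known as a scaffold part of the complex of aminoacyl-tRNA synthetases. It stood at 51.5, 41.8 and 39.7 CPM in ON, 15.5, 13.8 and 16.4 in OFF24, and 8.72, 6.75 and 6.71 in OFF48, and OFF48 stood at 16.9% of the ON level. No groups overlapped (log2 -1.55 ± 0.16 and -2.57 ± 0.19, edgeR adjusted p = 8.10e-07 and 3.00e-09, and -1.02 ± 0.23 between the time points, adjusted p = 0.00294). Cytosolic aminoacyl-tRNA synthetases themselves were lower for 17 of 20 tested genes at 24 h and for all 20 at 48 h, with median log2 fold changes of -1.03 and -1.07. Of all tested genes, 17.4% were lower at 24 h and 23.9% at 48 h.

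Eef2 and its inhibitor kinase took opposite courses by 48 h. Eef2 (chromosome 10, 81176631 to 81182498, plus strand), which moves the ribosome by 1 codon, had 2384, 2409 and 2369 CPM in ON, 2880.5, 3381 and 2898 in OFF24, and 1564, 1699 and 1466 in OFF48. It rose at 24 h and then fell below ON (log2 0.35 ± 0.09 and -0.60 ± 0.09, edgeR adjusted p = 0.00634 and 3.53e-05), a drop of log2 -0.95 ± 0.10 between the time points (adjusted p = 5.26e-07) with no overlap anywhere. The rise was lost when OFF24 2 was left out (edgeR adjusted p = 0.0711). Eef2k (chromosome 7, 120842831 to 120907450, plus strand), the kinase that phosphorylates and stalls eEF2, had 30.6, 26.3 and 27.6 CPM in ON, 42.6, 47.7 and 44.7 in OFF24, and 59.7, 51.0 and 65.6 in OFF48. It had the largest rise of all tested members at both times, to 160.0% and 212% of ON (log2 0.68 ± 0.14 and 1.08 ± 0.13, edgeR adjusted p = 7.32e-04 and 2.14e-06). OFF24 and OFF48 did not overlap, but the call between them (log2 0.41 ± 0.13, edgeR adjusted p = 0.0316) was lost when any 1 of OFF24 1, OFF24 3, OFF48 1 or OFF48 3 was left out (edgeR adjusted p = 0.0629 to 0.132). Its 3' end overlaps an antisense gene model.

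Methyltransferases of the elongation factors were low. Eef2kmt, which methylates eEF2, had 17.3, 19.4 and 20.8 CPM in ON, 19.6, 17.3 and 24.4 in OFF24, and 10.1, 13.5 and 10.2 in OFF48 and was lower in OFF48 than in both other groups (log2 -0.82 ± 0.21 against ON and -0.92 ± 0.21 against OFF24, edgeR adjusted p = 0.00292 and 0.00341), with its 3' end overlapping Alg1. Eef1akmt1 and Eef1akmt2, which methylate eEF1A, were not called at either time. Of the 3 members left untested, Eif4e1b, a form of germ cells, had no count in any library, Eef1a2, the form of muscle and neurons, had 0 or 1 per library and Eif5a2 at most 2.

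Genes that serve the same steps under other names were read alongside, from a list of 46 tested genes. Of these, 18 were lower and 4 higher at 24 h, beside 17.4% and 17.8% of all tested genes, and 23 were lower and 5 higher at 48 h, beside 23.9% and 23.4%. The same shares stand behind each group below. Termination and recycling genes were lower for 5 of 7 at 24 h and 6 of 7 at 48 h. Gspt1, the GTPase of termination (eRF3), had 99.2, 116 and 96.3 CPM in ON, 50.6, 50.9 and 48.6 in OFF24, and 40.9, 48.0 and 37.3 in OFF48 (log2 -1.06 ± 0.12 and -1.33 ± 0.13, edgeR adjusted p = 1.80e-06 and 6.13e-08). Abce1, which splits the spent ribosome, had 83.1, 62.9 and 71.6 CPM in ON, 33.4, 25.4 and 33.1 in OFF24, and 26.2, 30 and 27.4 in OFF48 (log2 -1.25 ± 0.14 and -1.40 ± 0.15). Every ON library of both lay above the later ones. Etf1, the release factor that reads stop codons, fell by less (log2 -0.81 and -0.86).

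Regulators of eIF4F were mixed, with 2 of 11 lower and 3 higher at 24 h and 3 lower and 4 higher at 48 h. Pdcd4, a known inhibitor of the eIF4A helicase, had 143, 155 and 159.6 CPM in ON, 363, 364 and 361 in OFF24, and 282, 264 and 269 in OFF48. It rose at both times without overlap (log2 1.25 ± 0.09 and 0.83 ± 0.10, edgeR adjusted p = 1.52e-08 and 8.02e-07) and was lower in OFF48 than in OFF24 (log2 -0.41 ± 0.09). Paip2, which pulls the poly(A)-binding protein off mRNA, also rose, with 64.8, 74.7 and 63.3 CPM in ON, 133, 141 and 154 in OFF24, and 92.3, 106 and 98.6 in OFF48 (log2 1.07 ± 0.11 and 0.54 ± 0.11, edgeR adjusted p = 6.14e-07 and 7.13e-04). The other genes called higher were Mknk2 at both times (log2 0.37 and 0.57, edgeR adjusted p = 0.0392 and 0.00174) and Mknk1 at 48 h (log2 0.69, adjusted p = 0.00401). Mknk2 overlapped ON at 24 h. Larp1, which binds mRNAs of the translation machinery, fell, with 260.2, 325 and 232 CPM in ON, 124, 141 and 125 in OFF24, and 120.4, 153 and 109.9 in OFF48 (log2 -1.07 ± 0.13 and -1.12 ± 0.14, edgeR adjusted p = 5.57e-06 and 1.75e-06). Pabpc1, the main poly(A)-binding protein, was not called at 24 h and was lower at 48 h (log2 -0.78 ± 0.20, edgeR adjusted p = 0.00727).

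Regulators of eIF2 were lower for 4 of 8 genes and higher for 1 at 24 h, and lower for 5 and higher for 1 at 48 h. Bzw2, which mimics eIF5 and competes with it, had 113, 121 and 129.5 CPM in ON, 46.8, 45.5 and 49.7 in OFF24, and 21.8, 24.0 and 23.6 in OFF48. It kept falling from group to group (log2 -1.35 ± 0.11 at 24 h, -2.39 ± 0.13 at 48 h and -1.04 ± 0.14 between them, edgeR adjusted p = 3.87e-08, 2.32e-11 and 1.62e-05). Nck1, an adaptor tied to eIF2 dephosphorylation, was higher at both times (log2 0.65 ± 0.16 and 0.88 ± 0.16, edgeR adjusted p = 0.00437 and 2.17e-04), and Abcf1, an eIF2-binding ATPase, was lower (log2 -0.58 and -0.86). In the same group Ppp1r15a was lower at both times (log2 -0.80 and -1.10, edgeR adjusted p = 0.0239 and 0.00368), overlapping ON at 24 h. Ppp1r15b was called at neither time (log2 0.03 and 0.06).

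A group of 10 genes, made of the enzymes for the special residues of eIF5A and eEF2 and of Eefsec, the elongation factor for selenocysteine, had 5 lower at each time and none higher. Eefsec itself was not called (log2 -0.22 and -0.15). Dohh, which completes hypusine on eIF5A, had 50.8, 65.3 and 48.0 CPM in ON, 20.9, 36.7 and 30.1 in OFF24, and 25.5, 29.2 and 22.2 in OFF48 (log2 -0.89 ± 0.17 and -1.14 ± 0.18, edgeR adjusted p = 5.75e-04 and 4.63e-05), and did not overlap ON in either later group. Dph2 and Dph5, which build diphthamide on eEF2, fell by log2 -1.15 and -0.64 at 24 h and by -1.64 and -1.05 at 48 h. The call of Dph2 at 24 h was lost when any 1 of ON 2, OFF24 1 or OFF24 3 was left out (edgeR adjusted p = 0.0596 to 0.0872). That of Dph5 was lost when OFF24 2 or OFF24 3 was left out (edgeR adjusted p = 0.0781 to 0.0865). Dph2 stood at 10.1 CPM at most and at 2.35, 2.25 and 2.62 CPM in OFF48, where replicate 2 has its floor at 2.26 CPM. The 3' end of Dph5 is shared with 16 annotated genes, and that of Dohh with 1. Mitochondrial translation factors were lower for 2 of 10 genes at 24 h, a share near the 17.4% of all tested genes, and for 4 at 48 h, beside 23.9%. Lower were Gfm1, an elongation factor, at both times (log2 -0.70 and -0.84), and Tufm and Tsfm, which deliver and reload tRNA carriers, at 48 h (log2 -0.75 and -0.59). So were Gfm2 at 24 h (log2 -0.44, edgeR adjusted p = 0.0495) and Guf1 at 48 h (log2 -0.66, adjusted p = 0.0258). The call of Gfm1 at 24 h was lost when OFF24 3 was left out (edgeR adjusted p = 0.0518), and Tsfm passed at 24 h when ON 2 or OFF48 2 was left out (edgeR adjusted p = 0.0462 to 0.0476).

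Other lists of translation genes are given as counts, with no test between the lists. Cytosolic ribosomal protein genes were lower for 3 and higher for 9 of 85 at 24 h (median log2 0.10), and lower for 45 and higher for 5 at 48 h (median -0.25). Mitochondrial ribosomal protein genes were lower for 37 and higher for 2 of 78 at 24 h, and lower for 49 and higher for 0 at 48 h (medians -0.39 and -0.62). Of all tested genes, 17.4% were lower and 17.8% higher at 24 h, and 23.9% and 23.4% at 48 h. The share of cytosolic ribosomal protein genes called higher at 24 h was thus below that of all genes. In OFF48 against OFF24, where 11.2% of all tested genes were lower, 56 of the 85 cytosolic ribosomal protein genes were lower and 0 higher. Beside them, all 5 genes of the eEF1 row and 14 of 53 Eif genes were lower.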

How the data were processed

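Counts of 9 libraries (3 per group, groups and replicate numbers from the sample titles) were analysed. The main deposited table gives raw counts for each gene symbol, as its whole numbers show. The log2 values of another deposited table (voom and limma, per its name) served as an alternative. The submitters' processing notes name HISAT2 2.0.4, featureCounts, Subread 1.5.0-p3 and limma 3.42.2, with mm10 as the build. Not given in the sources used here: annotation, strand setting, treatment of multi-mapping reads.

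The members, the factor complexes and the other lists were chosen with earlier results of these data known. Counts were filtered (filterByExpr), scaled by TMM and tested with edgeR 4.0.16 in R 4.3.3 (robust quasi-likelihood F test, 1 mean per group, all 9 libraries, 6 residual degrees of freedom), with Benjamini-Hochberg adjustment over 10215 genes and a threshold of 0.05. The script was tested on simulated data. Levels are TMM-scaled CPM, and the SE is the log2 fold change divided by the square root of F. Library totals set the precision, and reads carry no molecular identifiers here, so floors cover counting error only. No replicates were identical, and all pairs differed beyond counting noise, with a chi-square of 1.99 to 6.99 per degree of freedom.

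Values in every library are given for the 3 members per complex with the smallest p against ON and a mean over libraries of 10 CPM or more, for a list of known factors whatever their result, and for some related genes. Others were named after their values were seen. Paralogue ratios used counts + 0.5. Positions are from GENCODE M21 (GRCm38, also called mm10). A 3' end counts as shared where at least 100 of its last 400 bases match another gene at 95% identity; this holds for 19 of the 66 members.

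Alternatives were RLE, upper quartile or no scaling, no filter, a mean of at least 10 CPM, DESeq2 1.42.0, limma 3.58.1 on voom and on the deposited values, fits of 2 groups, a replicate block, leaving out each library, leaving out members with shared 3' ends, a pseudocount of 1, and, added after seeing the data, leaving out ON replicate 2 and OFF48 replicate 2 together.

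The labels give the groups the same replicate numbers. Deviations of same-numbered libraries from their group mean correlated by 0.11 to 0.41 for ON and OFF48, above a limit of 0.1 for every pair. That limit was applied after the calls with the block were known, and the main fit has no block. Not every pair passed it in the other comparisons, where the lowest was 0.04 (OFF24 with ON) and -0.01 (OFF48 with OFF24). Deviations within a group cancel out, so the correlations of a comparison are not independent. They cannot show whether the numbers pair the libraries.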

Additional observations from a re-analysis of the deposited data

Results flagged for a closer look

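For 24 members the change against ON differed between 24 h and 48 h, by edgeR's test of OFF48 against OFF24 (adjusted p under 0.05, 3 libraries per group). The difference, as log2 fold change of OFF48 over OFF24, was negative for 21 of them. That is 33.3% of the tested members lower and 4.76% higher, beside 11.2% and 9.99% of all tested genes. Among the Eef genes it was -0.53 for Eef1a1, -0.47 for Eef1b2, -0.53 for Eef1d, -1.02 for Eef1e1, -1.29 for Eef1g, -0.95 for Eef2 and -0.92 for Eef2kmt. Among initiation factors it was -0.74 for Eif2a, -1.05 for Eif2d, -0.30 for Eif2s2, -0.84 for Eif2s3x and -0.62 for Eif2s3y. For eIF3 it was -0.37 for Eif3a, -0.41 for Eif3b, -0.34 for Eif3e, -0.66 for Eif3i and -0.50 for Eif3l, and for the eIF4 genes -0.34 for Eif4a1, -0.78 for Eif4a2, -0.42 for Eif4b and -0.65 for Eif4e. It was positive for Eef2k (0.41), Eif4enif1 (0.58) and Eif6 (0.43). Of the 9 fits that left out 1 library, 8 lost the call of Eif2s3y. The calls of Eif2s2, Eif3b and Eif3e were lost in 6 each (for Eif3e, edgeR adjusted p = 0.0602 to 0.191). Those of Eef2k and Eif6 were lost in 4 each, those of Eif3a and Eif4a1 in 3 each, and that of Eif3l in 1 (edgeR adjusted p = 0.0644). The helicase gene Eif4a2 and the elongation genes Eef1a1 and Eef2 were above ON at 24 h and, for the elongation genes, below it at 48 h.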

How the results depend on the processing

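No member reversed its direction under any alternative while called. The members lower than ON ranged from 26 to 31 at 24 h and from 38 to 43 at 48 h over the fits that left out 1 library each, and those lower in OFF48 than in OFF24 from 15 to 21. Leave-one-out gave 3 to 5 members higher at 24 h, 4 or 5 higher at 48 h and 1 to 5 higher in OFF48 than in OFF24. Without members with shared 3' ends, 2 were higher at 24 h and 12 were lower in OFF48 than in OFF24, counted in the same fit over fewer members. The 3 members higher in OFF48 than in OFF24 became 1 with upper quartile scaling, 1 with DESeq2, 5 with no filter, 6 with the replicate block, and 6 without ON replicate 2 and OFF48 replicate 2 together. That last setting left 3 members higher at 48 h. It lost the calls of Eif2ak1, Eif3e, Eif4a3, Eif4enif1 and Eif6 against ON at 48 h.

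Of the 9 libraries, 5 matched best with their own number. With the replicate block all 35, 48 and 24 calls were kept, and Eif1b was gained at 24 h, Eif1, Eif4a2 and Eif5 at 48 h, and Eif1, Eif1ad, Eif2ak3, Eif3k and Eif4a3 between the time points. DESeq2 lost Eif2ak2 and Eif2b1 at 24 h, Eif3e, Eif3m, Eif4e2 and Eif4enif1 at 48 h, and Eef2k, Eif2s3y, Eif3b, Eif3e and Eif6 between them. Limma on the deposited log2 values lost Eef1a1, Eif2b1 and Eif2b2 at 24 h, Eef1b2, Eif2b2, Eif3e, Eif3m, Eif4g2 and Eif4e2 at 48 h, and Eef2k, Eif2s2 and Eif6 between them, and gained Eif2ak4 at 48 h and Eif2ak3 and Eif4g2 between the time points. The cause of these losses and gains was not tested under any alternative. Depth limits the genes near 10 CPM most, with a floor of 2.26 CPM in the shallowest library.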
